A study of Mus musculus with 12 samples.

Results

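Whole testes of 3 Sox3 knockout mice (KO) were compared with those of 6 wild-type mice (WT) across 22180 genes. The 9 arrays were chosen by genotype from the 12 of the series, each array holding the RNA of 1 testis, and the other 3 testes, of Sox3-Sox2KI mice (KI), entered only the shared estimate of each gene's spread. All mice were C57BL/6N, 2 weeks old and untreated. The KO and KI mice were made with CRISPR/Cas9, and no treatment, transgene or Cre is named for any group. WT 1, WT 2 and WT 3 were littermates of KI mice, whereas WT 4, WT 5 and WT 6 were littermates of KO mice. The number of founder lines behind the KO mice is not given in the sources used here. The series asks how SoxB1 genes act in the testis as it develops, and its design compares the KO testes with all 6 WT testes.

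Sox3 is an X-linked transcription factor of the SoxB1 group, which also holds Sox1 and Sox2, and its protein is known from spermatogonia that are about to differentiate. In the first wave of spermatogenesis, spermatogonia divide by mitosis, enter meiosis as spermatocytes and later become spermatids, all while embedded in Sertoli cells. Leydig cells, peritubular muscle, vessels and macrophages lie between the tubules. In whole testis RNA, fewer cells of a type and less RNA per cell cannot be told apart, a limit that holds for every gene given here.

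Levels were log2 expression values, on which a difference of 1 is a 2-fold change. Array medians lay between 5.74 and 5.82, and the median 95% interval reached 0.22 to either side of a change. As a mark of background, 95% of 1105 olfactory receptor genes, most of which are silent outside the nose, lay below 5.33, against a median of 6.27 over all genes. The labels call the testes biological replicates, so the p-values measure the spread between mice. On a principal component that held 45.7% of the variance, KO 1 and KO 3 lay at -29.4 and -35.1, whereas KO 2 lay at -6.59, between WT 4 at -4.84 and WT 6 at -7.62. KO 2 was thus nearer on this component to these WT testes than to the other KO testes.

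Sox3 itself, the targeted gene, read 6.57, 6.60 and 6.65 in KO 1, KO 2 and KO 3, and from 7.21 through a median of 7.28 to 7.36 in the WT testes. All KO values lay below all WT values, and KO 3 was the KO testis nearest to WT. The change was -0.68 (SE 0.093, limma adjusted p = 0.0161). A signal above the background mark remained in KO testes, and where in the gene the probes lie was not known here.

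Across all genes, 558 were higher in KO testes (2.52% of those tested) and 520 were lower (2.34%) at an adjusted p under 0.05 in limma. The decreases were the larger. Of the lower genes 240 changed at least 1.5-fold and 89 at least 2-fold, whereas of the higher genes 75 changed at least 1.5-fold and 2, Sel1l3 and Socs2, at least 2-fold. The median change was -0.56 among the lower and 0.42 among the higher genes, beside 0.04 over all genes. The lower genes were also the more abundant, with a median WT level of 8.10 against 7.28 for the higher genes and 6.26 for all. All 3 KO values lay above all 6 WT values in 1523 genes (6.87%) and below them in 1018 (4.59%).

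The KO testes shared these changes to unequal degrees. Over the lower genes, the median difference from the WT mean was -0.67 in KO 1, -0.36 in KO 2 and -0.65 in KO 3. Among the WT testes it ran from -0.18 in WT 6 and -0.15 in WT 4 to 0.16 in WT 2. Over the higher genes it was 0.46, 0.29 and 0.52 in KO 1, KO 2 and KO 3. These genes were called from the same KO values, so their shared direction is no separate support. KO 2 moved by less than the others.

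**Figure D1:**
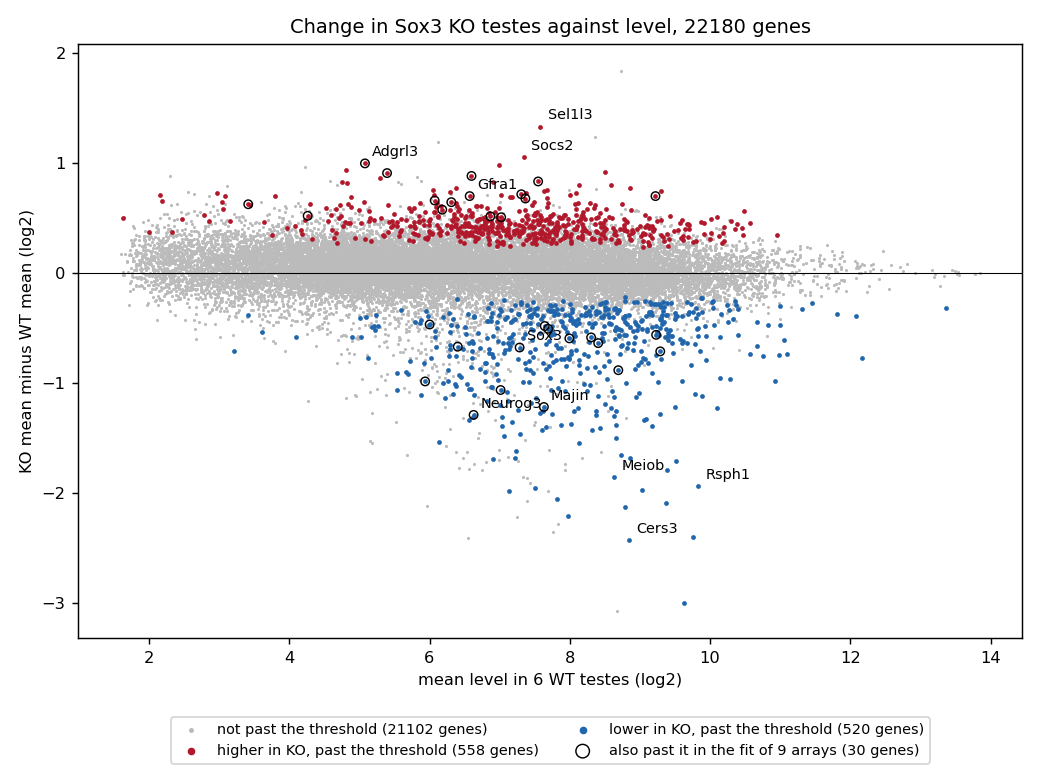
KO mean minus WT mean (log2, vertical axis) against the mean level in 6 WT testes (log2, horizontal axis), 1 point per gene, for 22180 genes. Red points (558) and blue points (520) passed an adjusted p of 0.05 in limma, black circles mark the 30 genes that also passed with the KI arrays left out, and the blue points reach much farther from 0 than the red.

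The number of genes past the threshold depended strongly on which arrays entered. Without KO 1 it was 1 higher and 2 lower, without KO 3 it was 1 and 1, and without WT 1, WT 2, WT 3 or WT 5 it lay between 8 and 21 higher and 10 and 16 lower. Without KO 2 it was 1375 and 948, without WT 4 it was 805 and 773, and without WT 6 it was 848 and 900. Calls over all genes thus grew in these settings, so a larger list count there is by itself no result about that list. With the KI arrays left out, 15 genes passed in each direction, and all 30 were among the 1078. The adjusted p of the other called genes in that limma fit of 9 arrays lay between 0.0508 and 0.093, so none of them passed. Against the KO littermates alone only Gfra1 and Neurog3 passed, whereas against the KI littermates alone 677 genes were higher and 668 lower. All 1078 genes kept their direction against the KO littermates, which were among the controls used to call them. The genes that passed were Gfra1, Neurog3 and Crtac1 without KO 1 and Gfra1 and Neurog3 without KO 3, so Gfra1, a spermatogonial marker, was the member of a list described here that still passed. Without WT 1, WT 2, WT 3 or WT 5, and likewise with the KI arrays left out, no list kept more than 2 higher and 1 lower. Against the KO littermates no gene list kept a member, marker lists aside.

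The 30 genes that passed with and without the KI arrays are described first, a choice made after their values were seen. Each had all 3 KO values outside the WT range, but they were picked by p from these same values, so this is no separate support. Those that fell were Neurog3, Sox3, Majin, Gm17266, 4930429F24Rik, Syce3, Tc2n, Fam221b, Ticrr, Cdkn3, Tbx1, H1f10, Rtn4ip1, Pemt and Crtac1. Those that rose were Adgrl3, Myoz2, Erbb3, Ildr2, Ret, Gfra1, Tgfbi, Map3k5, Epha2, Bhlhe41, Olfr1352, Shisa4, Ppef2, Pramel13 and Atoh8.

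Neurog3, a basic helix-loop-helix factor of progenitor spermatogonia, read 5.39, 5.09 and 5.53 in the KO testes and 6.45, 6.58 and 6.83 as the lowest, median and highest WT value. The KO values were all lower, by at least 0.92, and KO 2 was the lowest, below the background mark. The change was -1.29 (SE 0.117, limma adjusted p = 0.00181), and leaving out single arrays moved it between -1.39 and -1.17. It was the gene that passed in all 19 alternatives in which it was tested.

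Transcription and chromatin genes were among those that fell. Tbx1, a T-box transcription factor, read 7.81, 7.60 and 7.74 in KO against 8.18, 8.30 and 8.46 in WT. The groups did not overlap, and the change was -0.59 (SE 0.082, limma adjusted p = 0.0161). H1f10, a linker histone, read 8.66, 8.87 and 8.46 in KO against 9.17, 9.23 and 9.31 in WT, a change of -0.56. KO 2 was the KO testis nearest to WT in H1f10 and the farthest from it in Tbx1. Pbx4, a homeobox gene outside the 30, read 6.00, 6.00 and 6.08 in KO against 6.48, 6.94 and 7.41 in WT, a change of -0.92 (limma adjusted p = 0.0337). Its KO values were far more alike than its WT values, whose SD of 0.42 compares with a median of 0.14 over all genes. Hirip3, a histone-binding partner of the chaperone HIRA, changed by -0.64 and Zfp389, a zinc finger gene, by -1.05, both with no overlap.

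Some of the genes that fell act in the cell cycle or in the pairing of chromosomes. Cdkn3, a phosphatase that acts on cyclin-dependent kinases, read 7.42, 7.54 and 7.24 in KO against 7.90, 7.95 and 8.21 in WT. The change was -0.60 (limma adjusted p = 0.0234). Ticrr, needed to load replication proteins at origins, read 7.59, 7.95 and 7.76 in KO against 8.22, 8.43 and 8.51 in WT, a change of -0.64. Majin, which ties meiotic telomeres to the nuclear envelope, read 6.26, 6.88 and 6.10 in KO against 7.30, 7.70 and 7.91 in WT, a change of -1.22 (limma adjusted p = 0.0204). Syce3, part of the central element of the synaptonemal complex, changed by -0.88, and Hfm1, a helicase of meiotic crossing over outside the 30, by -1.12. In Majin, Syce3 and Hfm1, KO 2 lay between the WT range and the other KO testes.

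Metabolic and less studied genes completed this side. Pemt, which makes phosphatidylcholine from phosphatidylethanolamine, read 7.13, 7.22 and 7.13 in KO against 7.55, 7.63 and 7.76 in WT, a change of -0.48 (limma adjusted p = 0.0161). Rtn4ip1, a mitochondrial oxidoreductase, changed by -0.51. Fam221b read 5.69, 5.78 and 5.72 in KO against 6.25, 6.40 and 6.59 in WT, a change of -0.67 (limma adjusted p = 0.00713). For Fam221b, as for Pemt, KO 2 was as low as KO 1 and KO 3 or nearly so. Crtac1, a secreted matrix protein, changed by -0.47 with a WT range of only 5.96 to 6.05. Car7, a carbonic anhydrase, changed by -0.99 (5.92, 5.94 and 5.55 in KO against 6.29 to 7.38 in WT) and Prss50, a testis serine protease, by -0.78, both outside the 30. Cmtm2b changed by -0.59, also without overlap, but 5 of its 6 WT values and all its KO values were below the background mark.

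Several of the genes that rose encode receptors. Gfra1, the receptor for the niche factor GDNF, read 7.27, 7.21 and 7.33 in KO against 6.41, 6.59 and 6.66 in WT. No value overlapped, and the change was 0.70 (SE 0.068, limma adjusted p = 0.00207). Its partner kinase Ret read 8.03, 7.86 and 8.18 against 7.18, 7.27 and 7.51, a change of 0.71 (limma adjusted p = 0.0161). Adgrl3, a latrophilin adhesion receptor, had the widest gap of those that rose, with 6.16, 5.94 and 6.12 in KO against 4.88, 5.01 and 5.34 in WT. Its change was 0.99 (SE 0.122, limma adjusted p = 0.0132), and the WT values lay at or near the background mark. Epha2, an ephrin receptor, read 6.92, 6.64 and 6.63 in KO against 5.96, 6.08 and 6.21 in WT, a change of 0.66. Erbb3, a neuregulin receptor, changed by 0.88, from a WT range of 6.30 to 6.92 to 7.49, 7.30 and 7.64.

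Other genes that rose included regulators and structural proteins. Bhlhe41, a transcriptional repressor also known from the circadian clock, read 6.91, 6.94 and 7.01 in KO against 6.15, 6.34 and 6.47 in WT, a change of 0.64 (limma adjusted p = 0.0143). Map3k5, a stress-activated kinase, read 8.04, 8.05 and 8.03 in KO against 7.19, 7.36 and 7.61 in WT, a change of 0.68 (limma adjusted p = 0.0161). In both, the 3 KO testes were closer to each other than the WT testes were, and KO 2 was no exception. Tgfbi, a secreted matrix protein induced by TGF-beta, read 9.99, 9.81 and 9.95 in KO against 9.06, 9.22 and 9.44 in WT, a change of 0.70. Ildr2, an immunoglobulin-domain protein, changed by 0.83, Myoz2, a calcineurin-binding protein of the muscle Z-disc, by 0.91, and Atoh8, a helix-loop-helix factor, by 0.50. Ppef2, a protein phosphatase, and Olfr1352 were below the background mark in all 9 testes, so their changes of 0.52 and 0.62 are of dim signals.

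**Figure D2:**
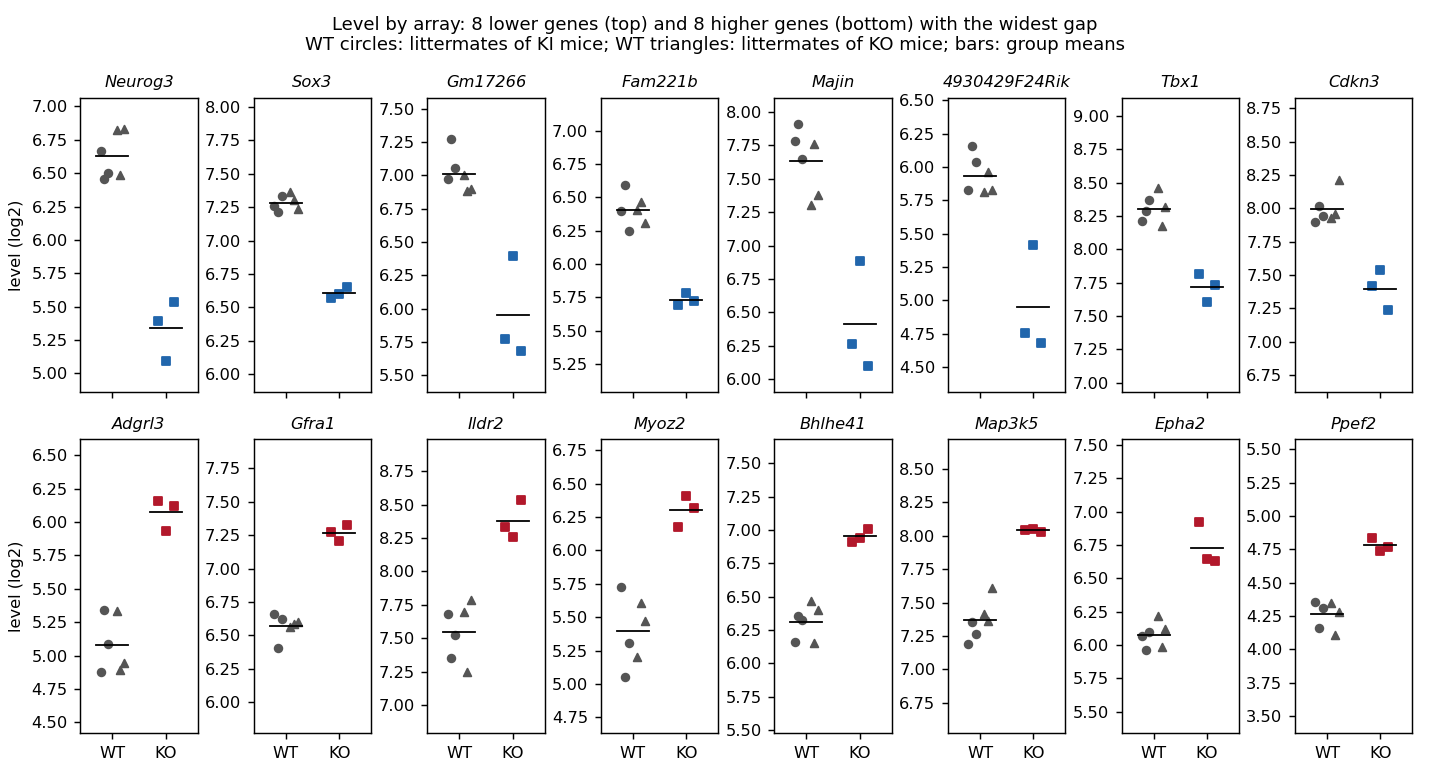
Level by array (log2, vertical axes, each spanning the same range) in WT and KO testes for the 8 lower genes (top) and the 8 higher genes (bottom) with the widest gap among the 30. Circles are WT littermates of KI mice, triangles WT littermates of KO mice, squares KO testes and bars group means, and in no panel do KO and WT values overlap.

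Promoters are shown for the 2 genes of widest gap in each direction among those with a proper symbol and a match in the RefSeq promoter table (GRCm38.p6), from 250 bases before to 50 after the start of each gene. Sox3 and Majin were not matched. Tbx1 was added after its values were seen, past Pbx4, as an example of a lower gene with a match to the MYB motif. Capitals mark matches to one of the motifs given with the motif counts.
Neurog3 promoter, chr10:62132840-62133139, plus strand: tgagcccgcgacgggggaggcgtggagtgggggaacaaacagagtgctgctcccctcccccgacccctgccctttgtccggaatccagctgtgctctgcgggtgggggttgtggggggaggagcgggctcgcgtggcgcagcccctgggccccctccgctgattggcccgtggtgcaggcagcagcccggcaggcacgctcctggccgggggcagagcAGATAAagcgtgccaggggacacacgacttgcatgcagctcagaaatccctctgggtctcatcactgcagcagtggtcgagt
Fam221b promoter, chr4:43668810-43669109, minus strand: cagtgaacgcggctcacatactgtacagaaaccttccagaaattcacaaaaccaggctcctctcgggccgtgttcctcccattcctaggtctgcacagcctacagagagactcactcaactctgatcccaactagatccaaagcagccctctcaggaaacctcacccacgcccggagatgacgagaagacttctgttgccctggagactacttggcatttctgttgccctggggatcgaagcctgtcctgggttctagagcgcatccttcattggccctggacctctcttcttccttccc
Tbx1 promoter, chr16:18588850-18589149, minus strand: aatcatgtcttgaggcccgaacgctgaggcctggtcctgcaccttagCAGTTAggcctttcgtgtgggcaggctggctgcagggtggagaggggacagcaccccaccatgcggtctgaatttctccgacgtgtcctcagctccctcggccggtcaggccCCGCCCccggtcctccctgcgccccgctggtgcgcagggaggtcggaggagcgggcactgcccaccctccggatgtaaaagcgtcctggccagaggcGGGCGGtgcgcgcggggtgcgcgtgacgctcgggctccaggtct
Adgrl3 promoter, chr5:81020321-81020620, plus strand: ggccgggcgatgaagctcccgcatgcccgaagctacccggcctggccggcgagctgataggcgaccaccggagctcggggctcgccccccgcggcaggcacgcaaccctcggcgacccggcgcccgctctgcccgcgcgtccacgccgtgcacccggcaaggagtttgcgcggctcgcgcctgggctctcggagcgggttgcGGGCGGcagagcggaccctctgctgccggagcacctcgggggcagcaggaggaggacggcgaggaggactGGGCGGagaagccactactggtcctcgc
Gfra1 promoter, chr19:58455349-58455648, minus strand: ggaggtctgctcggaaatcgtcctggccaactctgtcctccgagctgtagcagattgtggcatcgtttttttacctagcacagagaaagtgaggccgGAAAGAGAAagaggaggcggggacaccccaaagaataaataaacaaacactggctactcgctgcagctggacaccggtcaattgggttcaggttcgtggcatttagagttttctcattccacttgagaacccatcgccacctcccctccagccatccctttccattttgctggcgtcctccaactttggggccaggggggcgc
Neurog3 held the GATA letters AGATAA, Tbx1 held the MYB letters and a pair of GC boxes, Adgrl3 held a pair of GC boxes, Gfra1 held the IRF letters, and Fam221b held none of the motifs searched. The SOX letters AACAAT were in none of these windows. A match is a description of letters and not a site.

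The motif counts covered 16918 genes with a promoter of this length, among them 431 that fell and 417 that rose. Motifs were searched on both strands. The MYB letters TAACNG were in 29.5% of promoters of genes that fell, in 13.909% of those that rose and in 21.5% of all. The E2F letters GCGGGAA were in 13.5%, 5.76% and 6.08%, in the same order. The NRF1 letters GCGCATGC were in 8.82%, 2.40% and 3.74%. STRA8 letters CNCCTCAG were in 12.5%, 8.39% and 8.57%. SOX letters AACAAT were in 6.03%, 7.91% and 9.29%. GATA letters AGATAA were in 4.41%, 7.67% and 9.98%. GC box letters GGGCGG were in 59.6%, 61.6% and 46.8%. CRE letters TGACGTCA were in 4.18%, 2.40% and 2.45%, and IRF letters GAAANNGAA in 7.19%, 8.15% and 8.10%. SF1 letters CAAGGTCA were in 0.696%, 1.199% and 1.27%. The groups also differed in base composition, whose part in these shares was tested only by a split: the median GC content was 60.0% for genes that fell, 61.0% for those that rose and 56.3% for all. Promoters were therefore split into 8446 of higher and 8472 of lower GC content, and shares are given in the same order. MYB letters were in 26.5%, 9.47% and 14.5% of the first and in 35.4%, 21.6% and 28.5% of the second. E2F letters were in 16.4%, 7.95% and 10.1%, then in 7.64%, 1.96% and 2.09%. NRF1 letters were in 9.41%, 2.27% and 5.45%, then in 7.64%, 2.61% and 2.04%. So these letters were most frequent in genes that fell in both sets of promoters. The order of other motifs turned in one set or both. STRA8 letters were in 16.0%, 9.47% and 10.4% of promoters of higher GC but in 5.56%, 6.54% and 6.75% of the others. SOX letters were in 3.48%, 1.89% and 3.17% and then in 11.1%, 18.3% and 15.4%, so that neither set had the order seen over all promoters. GC boxes were in 73.5%, 83.3% and 76.2% and then in 31.9%, 24.2% and 17.6%. The order turned in the promoters of lower GC for CRE (2.08%, 2.61% and 1.41%) and GATA letters (11.1%, 18.3% and 16.8%), and it differed between the sets for IRF letters. No test was made of these shares.

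**Figure D3:**
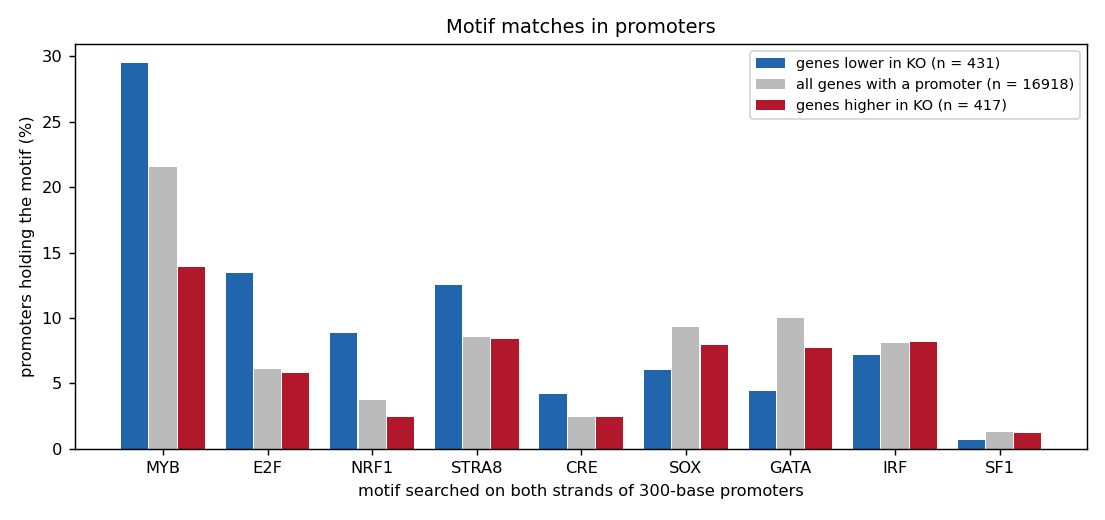
Share of promoters that hold each motif (%, vertical axis, from 0) for genes lower in KO (blue, n = 431), all genes with a promoter (grey, n = 16918) and genes higher in KO (red, n = 417). MYB, E2F and NRF1 letters are most frequent in the promoters of lower genes, as they also were in promoters of lower and of higher GC content, whereas the order of the bars for STRA8, CRE, SOX, GATA, IRF and SF1 turned in at least one of those sets.

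Among genes with a proper symbol, the largest decrease was of Fabp9, a fatty acid binding protein of the testis. It read 5.69, 8.59 and 5.60 in KO against 7.85, 10.12 and 10.75 in WT, a change of -3.00 or 8.004-fold (SE 0.729, limma adjusted p = 0.0397). KO 2 lay inside the WT range. Next came Cers3, a ceramide synthase, at -2.43 and Kctd19 at -2.40, which read 6.83, 8.93 and 6.29 against 8.45, 10.06 and 10.43 (limma adjusted p = 0.0353). Poteg read 4.59, 6.02 and 4.85 against 5.86, 7.47 and 8.40, a change of -1.98 (limma adjusted p = 0.0485), and Hsf5, a heat shock factor of meiosis, changed by -1.98. In all of these KO 2 overlapped the WT range, whereas KO 1 and KO 3 lay below it. Rsph1, a radial spoke protein of the axoneme, read 7.18, 8.91 and 7.59 in KO against 8.67, 10.15 and 10.48 in WT, a change of -1.93 (SE 0.446, limma adjusted p = 0.0364). KO 2 lay inside the WT range. Meiob, which binds single-stranded DNA in meiotic recombination, read 6.46, 8.05 and 5.83 in KO against 8.06, 8.65 and 9.17 in WT, a change of -1.85 (limma adjusted p = 0.032). KO 2 was just below the lowest WT testis. Clgn, an endoplasmic reticulum chaperone of male germ cells, read 7.44, 8.56 and 7.40 against 8.48, 9.74 and 10.25, a change of -1.71. Sox30, a SOX factor outside the SoxB1 group that acts in germ cells, read 6.54, 7.58 and 6.55 against 7.66, 8.46 and 8.69, a change of -1.43 (limma adjusted p = 0.031) with no overlap.

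Other genes of this size were Gml at -1.79, Pdcl2 at -1.69, Tesmin at -1.68, Glipr1l2 at -1.68, Lrrc46 at -1.66, Cfap206, a ciliary protein, at -1.62, Fhl4, a LIM protein, at -1.54 and Ube2u, a ubiquitin-conjugating enzyme, at -1.54. Ybx2, an RNA-binding protein that stores germ cell messages, was at -1.503, Tktl2, a transketolase-like enzyme, at -1.49 and Stard6, a lipid-transfer protein, at -1.46. All passed the threshold, with limma adjusted p between 0.0311 and 0.0447. Pdcl2, Glipr1l2, Ybx2 and Stard6 did not overlap between the groups, whereas KO 2 lay within the WT range for the others. Of 8 early spermatocyte markers 7 fell, with a mean of 8.40 to 9.16 in KO and 9.29 to 9.78 in WT testes, and of 8 pachytene markers 4 fell, with a mean of 6.15 to 6.95 against 6.87 to 8.09. Of 6 spermatid markers only Odf1 was above the background mark, with a change of 0.27 that did not pass. The part of such cells in each result was not tested.

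Of 88 cilium and flagellum genes 9 fell (10.2%, against 2.34% of all genes) and none rose. The median change was -0.18, beside 0.04 over all genes. Besides Rsph1 and Cfap206 these were the intraflagellar transport genes Ift22 (-0.74), Ift80 (-0.86), Ift81 (-0.48) and Ift122 (-0.62), the axonemal genes Cfap69 (-1.31) and Drc3 (-0.78), and Tekt1 (-0.75), a tektin. Tekt1 read 5.495, 5.54 and 5.52 in KO and 5.74 to 6.68 in WT, so that the KO testes were alike. Ift22 likewise read 7.99, 8.07 and 7.87 against 8.32 to 9.05. The mean of the list was 6.03 to 6.23 in KO and 6.18 to 6.69 in WT, and WT 4 and WT 6 (6.20 and 6.18) were below KO 2 (6.23). The count was 20 without WT 4, 24 without WT 6 and 15 without KO 2, but at most 1 with the KI arrays left out.

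Some members of the Tex, Spata, Ccdc and kinesin families fell, in larger shares than the 2.34% of all genes. Of 38 Tex genes 4 fell, or 10.5% (Tex101, Tex12, Tex16 and Tex14, from -1.10 to -0.31). Of 28 Spata genes 4 fell, or 14.3% (Spata22, Spata33, Spata1 and Spata6, from -1.25 to -0.36). Spata22, the partner of Meiob in recombination, read 6.88, 7.74 and 6.74 against 8.01 to 8.65. Of 128 Ccdc genes 9 fell (7.03%), led by Ccdc152 (-1.29), Ccdc65 (-1.17) and Ccdc158 (-1.16), and 2 rose (1.56%, Ccdc160 and Ccdc141). Of 42 kinesins 5 fell (11.9%), Kif9 by the most (-0.99), and Kif13a rose by 0.42 with KO values of 7.43, 7.37 and 7.54 against 6.98 to 7.14. The counts of Tex, Spata and Ccdc genes that fell were 8, 7 and 16 without KO 2, and that of Ccdc genes was 14 without WT 4 and 16 without WT 6. None of 21 MAGE genes passed in limma. At an unadjusted p under 0.05, 5 were higher and 1 lower, beside 3196 and 2179 of all 22180 genes.

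Genes of the mitotic spindle and kinetochore had the highest share of members that fell among the gene lists, marker lists aside. Of 41 members 13 fell (31.7%, against 2.34% of all genes), none rose, and 37 had a negative change, with a median of -0.23. The mean of the list was 8.26 to 8.40 in KO and 8.49 to 8.62 in WT testes, without overlap. With the KI arrays left out, no list kept more than 1 lower member. The members that fell were Ect2, Bub1, Knl1, Kif11, Cdca8, Cenpk, Hmmr, Nuf2, Aurka, Birc5, Prc1, Cdc20 and Kif20b, with changes from -0.64 (Knl1) to -0.26 (Kif20b). Ect2, which directs cytokinesis, read 10.06, 10.39 and 10.21 in KO against 10.60, 10.65 and 10.75 in WT, a change of -0.45 (limma adjusted p = 0.0275). Kif11, the motor that parts spindle poles, read 8.99, 8.97 and 8.99 against 9.21, 9.28 and 9.32, a change of -0.28. Bub1, a checkpoint kinase, read 9.08, 9.60 and 9.09 against 9.71, 9.84 and 9.92, a change of -0.58. In all 3 genes the KO values lay below the WT values, and KO 2 was the KO testis nearest to WT in Ect2 and Bub1 but not in Kif11.

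DNA replication and repair genes had smaller median changes. Of 42 replication genes 5 fell (11.9%, against 2.34% of all genes) and none rose, with a median of -0.12. Gins1, of the replicative helicase, read 6.30, 6.55 and 6.37 against 6.80 to 7.21 (change -0.64), Mcm3 changed by -0.27, Mcm7 by -0.29, Cdc45 by -0.31 and the sliding clamp Pcna by -0.25. The list mean was 8.18 to 8.25 in KO and 8.29 to 8.36 in WT. Of 31 Fanconi and homologous repair genes 7 fell (22.6%) and none rose, with a median of -0.13 and list means of 7.92 to 8.03 against 8.10 to 8.21. Mdc1, which marks broken DNA and the silent sex chromosomes of spermatocytes, read 8.99, 9.54 and 9.03 against 9.74 to 10.40, a change of -0.96 (limma adjusted p = 0.0267). Atr, the checkpoint kinase that acts with it, read 9.54, 10.15 and 9.80 against 10.36 to 10.74, a change of -0.73. The others were Fancg (-0.48), Fancd2 (-0.42), Topbp1 (-0.42), Bard1 (-0.37) and Rad54l (-0.26). The repair count was 12 without KO 2.

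Cyclins and chromatin enzymes changed in few members. Of 37 cyclins and cyclin-dependent kinases Ccnk (-0.33) and Ccnb3 (-0.69), a cyclin of meiosis, fell, and the list median was -0.04. Of 74 chromatin enzymes 4 fell, the testis bromodomain gene Brdt (-1.30), the demethylase Kdm4d (-1.14), Ezh2 (-0.36) and Setdb1 (-0.31). Morc1, a transposon silencer of male germ cells, rose by 0.54 and read 8.29, 8.29 and 8.32 against 7.59, 7.75 and 8.01. The list median was 0.002, with as many positive as negative changes. Of 48 ubiquitin and proteasome genes Fbxo47 (-0.83) and Rnf212 (-0.53), both of meiotic chromosomes, fell. The shares that fell were 5.41%, 5.41% and 4.17% for these lists, beside 2.34% of all genes. The counts that fell were 5, 7 and 4 for these lists without KO 2, and 8 chromatin genes fell without WT 6.

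Some chaperones of the endoplasmic reticulum also fell. Of 36 folding and stress genes 6 fell (16.7%, against 2.34% of all genes), and the median was -0.12. The list mean was 8.504 to 8.64 in KO and 8.69 to 8.78 in WT. Sdf2l1 read 7.29, 7.72 and 7.27 against 7.87, 8.07 and 8.16, a change of -0.62 (limma adjusted p = 0.0234). Creld2 read 9.25, 9.53 and 9.12 against 9.70, 9.83 and 9.87, a change of -0.51. Dnajc3 changed by -0.54, Hspa5, the main chaperone of this compartment, by -0.39 and Calr, a lectin chaperone, by -0.38, while Clgn is given with the largest decreases. Sel1l3 was the member that rose, by 1.33, although KO 2, at 8.21, lay inside the WT range of 7.14 to 8.25. Of 52 heat shock and chaperonin genes 4 fell (7.69%) and 2 rose (3.85%), against 2.34% and 2.52% of all genes. Of those that fell, Hsf2bp (-0.81), Hspa2 (-1.12) and Hsf5 (-1.98) are genes of meiosis, and the fourth was Hspa5. Those that rose were Hspa12a (0.59) and Hspb1 (0.42). Leaving out KO 2 gave 11 folding and 7 heat shock genes that fell, and leaving out WT 6 gave 7 heat shock genes.

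Among common cell machines, it was mostly the testis forms of subunits that passed the threshold. Of 89 oxidative phosphorylation subunits 3 fell (3.37%, against 2.34% of all genes). They were the testis subunits Cox7b2 (-1.33) and Cox6b2 (-1.002) and, by less, Atp5pb (-0.23), and the list median was -0.02. The list mean was 8.15 to 8.17 in KO and 8.18 to 8.28 in WT, and 7, 6 and 8 members fell without KO 2, WT 4 and WT 6. Of 89 cytosolic ribosomal proteins 1 fell and 1 rose (1.12% each, under the shares of all genes). Rpl39l, the male germ cell form of Rpl39, read 7.21, 7.36 and 7.11 against 7.54 to 7.97 (change -0.52), and the X-linked Rps4x was higher by 0.41. Nup210l, a testis nuclear pore protein, changed by -0.97 and was the member of 45 nuclear pore and transport genes to pass. It made up 2.22% of them, near the share of all genes. Of the 45 genes 40 had a negative change, the median was -0.13, and 4, 4 and 5 members fell without KO 2, WT 4 and WT 6. None of 71 mitochondrial ribosomal, 64 translation, 59 splicing and 28 cholesterol genes passed in limma. At an unadjusted p under 0.05 in limma these lists had 2, 7, 3 and 3 members higher and 9, 7, 8 and 3 lower. Of all 22180 genes, 3196 were higher and 2179 lower at the same unadjusted p. Such counts are thus by themselves no sign of change in a list. Eif4a1, the translation gene of highest level, read 13.55, 13.44 and 13.53 against 13.47 to 13.58, and Hmgcs1, of cholesterol synthesis, 10.63, 10.69 and 10.65 against 10.46 to 10.76. The KO and WT ranges of both overlapped.

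**Figure D4:**
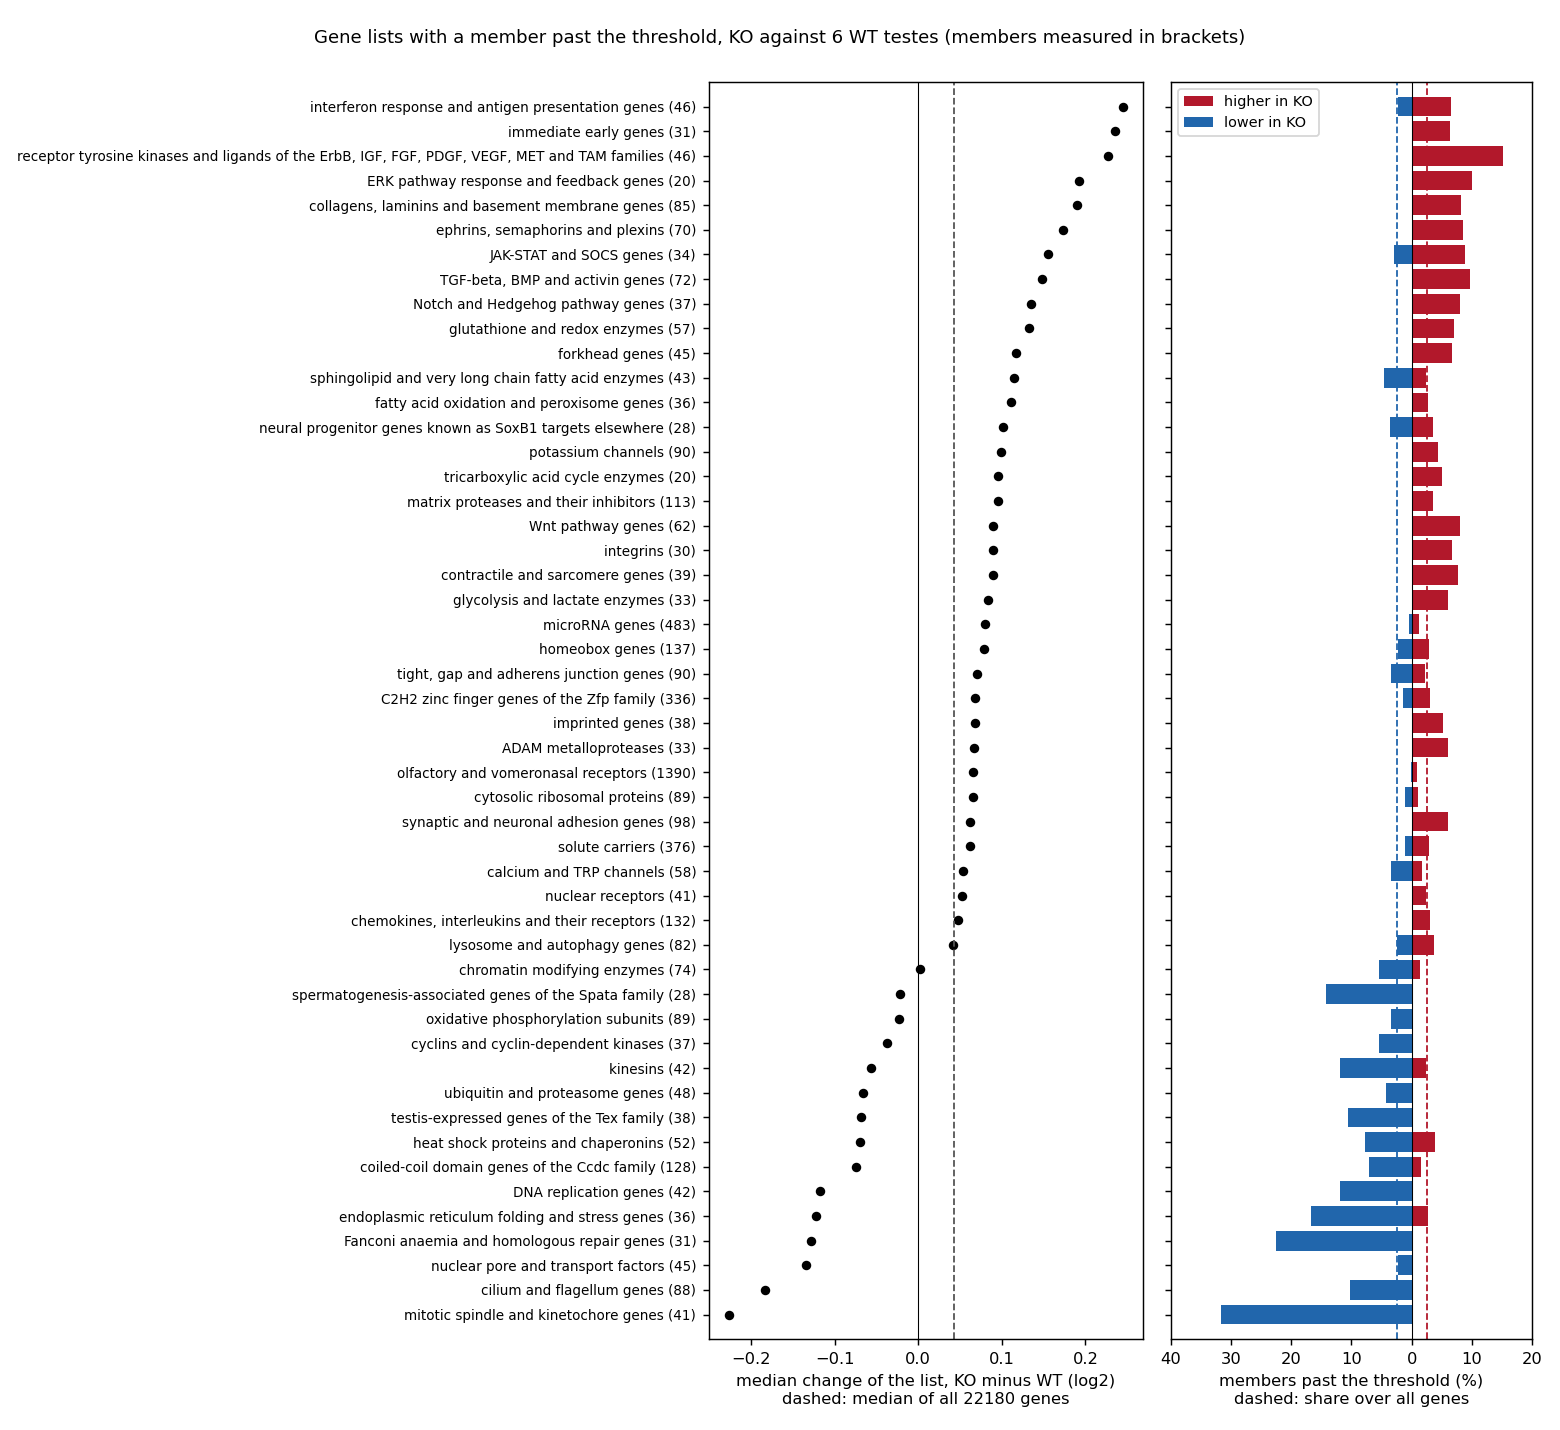
Left, median change of each gene list with a member past the threshold (KO minus WT, log2), with the number of members measured in brackets. Right, share of members past the threshold (%), higher to the right in red and lower to the left in blue; dashed lines give the values over all 22180 genes, and spindle genes stand lowest (-0.23, 31.7% lower) while receptor tyrosine kinases have the largest share higher (15.2%); marker lists are not plotted.

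Enzymes of intermediary metabolism rose in single members. Gpx8, a peroxidase of the endoplasmic reticulum, read 9.60, 8.95 and 9.63 against 8.24, 8.54 and 8.91, a change of 0.80 (limma adjusted p = 0.032), and was joined by the glutathione transferases Gstm1 (0.38), Gstk1 (0.45) and Mgst2 (0.46, with WT values under the background mark). So 4 of 57 glutathione and redox genes rose (7.02%, against 2.52% of all genes) and none fell. The list had a median of 0.13 and means of 7.71 to 7.81 in KO against 7.62 to 7.70 in WT. Of 33 glycolysis genes the pyruvate dehydrogenase genes Pdk2 (0.36) and Pdha1 (0.46) rose, of 20 citric acid cycle genes Idh2 (0.52), and of 36 fatty acid oxidation genes Acadm (0.33). Among 43 sphingolipid genes Cers3, which makes the very long chain ceramides of spermatocytes, fell by 2.43, Acer3, a ceramidase, by 0.58, and St3gal5, which makes the ganglioside GM3, rose by 0.33. So 4.65% of that list fell and 2.33% rose, beside 2.34% and 2.52% of all genes. Of 82 lysosome and autophagy genes 3 rose (3.66%) and 2 fell (2.44%), shares near those of all genes. Ctsh, Gusb and Atg10 rose and Atg2b and Atp6v1d fell, and the median of 0.04 was like that of all genes. Redox genes that rose numbered 10 without KO 2 and 9 without WT 6, and lysosome genes 11 and 7.

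Among genes of transport across membranes, solute carriers rose near the rate of all genes (2.52%) and fell in a smaller share than all genes (2.34%). Of 376 solute carriers 11 rose (2.93%) and 4 fell (1.06%). The largest increases were of the taurine carrier Slc6a6 (0.55) and of Slc38a1 (0.52), an amino acid carrier, and the largest decrease was of Slc6a16 (-0.69). Slc25a31, the ADP/ATP carrier of male germ cells, changed by -0.38. Of 90 potassium channel genes 4 rose (4.44%, against 2.52% of all genes) and none fell. They were led by Kcnt1, which read 8.14, 7.85 and 8.31 against 6.95, 7.45 and 7.60 (change 0.73, limma adjusted p = 0.0295). Of 58 calcium and TRP channel genes Cacna2d1 rose (0.47), while the sperm channel gene Catsper2 (-0.73) and Trpc1 (-0.46) fell. So 1.72% of that list rose and 3.45% fell. Of the solute carriers 33 rose and 9 fell without KO 2, 14 and 10 without WT 4, and 21 and 9 without WT 6.

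The largest increases came in genes of unlike function. After Sel1l3 (1.33), Socs2, an inhibitor of cytokine signalling, read 9.08, 7.74 and 8.37 against 6.88, 7.41 and 7.76, a change of 1.05, with KO 2 inside the WT range. Bcan, a proteoglycan known from brain matrix, read 7.98, 7.30 and 7.91 against 6.50, 6.93 and 7.17, a change of 0.83 (limma adjusted p = 0.031). Hrk, a BH3-only cell death gene, read 5.36, 5.54 and 5.85 against 4.40, 4.80 and 5.11, a change of 0.83, with WT values under the background mark. Lbh, a transcription cofactor, read 9.69, 9.23 and 9.95 against 8.59, 8.81 and 9.23, a change of 0.77, where KO 2 and the highest WT testis all but met. Heph, an X-linked ferroxidase, changed by 0.77, Creb5, a CREB-family factor, by 0.75, Tbc1d9 by 0.73, the protocadherin Pcdhb14 by 0.81 and the noncoding AF357355 by 0.74. Padi2, which turns arginine into citrulline in proteins, changed by 0.92. Apart from Sel1l3, Socs2 and AF357355, these genes did not overlap between the groups, and the WT values of Pcdhb14 were under the background mark.

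Receptor tyrosine kinases and their ligands had the highest share of members that rose among the gene lists, marker lists aside. Of 46 genes of the ErbB, IGF, FGF, PDGF, VEGF, MET and TAM families 7 rose (15.2%, against 2.52% of all genes) and none fell, with a median of 0.23. Beside Erbb3 these were Erbb4, a second neuregulin receptor (0.59, 7.59, 7.44 and 7.71 against 6.79 to 7.15), Igfbp3, which binds IGFs (0.51), Pdgfra, a receptor of interstitial cells (0.56), its ligand Pdgfc (0.41), and the TAM kinases Axl (0.27) and Tyro3 (0.31). The list mean was 7.27 to 7.502 in KO and 7.09 to 7.27 in WT, where KO 2 and WT 6 met. Of 20 genes of the ERK pathway Etv5 (0.35) and Il17rd (0.42) rose, and 16 had a positive change. Etv5, a factor that GDNF and FGF induce, read 8.09, 8.04 and 8.06 against 7.51, 7.70 and 7.86. Its KO values were close together, and KO 2 was the nearest to WT. Without KO 2 the counts were 17 receptor and 5 ERK genes, and without WT 6 the ERK count was 4. With the KI arrays left out, no list kept more than 2 higher members.

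Single members of cytokine and growth factor pathways rose. Of 34 JAK-STAT genes Socs2, Stat5b (0.35) and Ifngr2 (0.33) rose and Socs7 (-0.50) fell. These were 8.82% and 2.94% of the list, beside 2.52% and 2.34% of all genes. Of 72 TGF-beta, BMP and activin genes 7 rose (9.72%) and none fell, with a median of 0.15. They were the protease Bmp1 (0.49), the co-receptor Tgfbr3 (0.39), the target Id2 (0.31), the activin subunits Inhba (0.57) and Inhbb (0.38), Tgfb3 (0.35) and the latent binding protein Ltbp3 (0.62). Inhba read 6.47, 6.10 and 6.32 against 5.37, 5.81 and 5.91. Of 62 Wnt genes 5 rose (8.065%), the ligand carrier Wls (0.65), the agonist Rspo2 (0.64), its receptors Lgr4 (0.28) and Lgr5 (0.27), and Tcf7l2 (0.33). Lgr5 read 4.88, 4.92 and 5.06 against 4.53 to 4.78, below the background mark in all 9 testes, and passed in 1 of the 18 alternatives in which it was tested. Rspo2 read 6.53, 6.69 and 7.01 against 5.92, 6.15 and 6.23. Of 37 Notch and Hedgehog genes Lfng (0.48), Boc (0.45) and Maml3 (0.41) rose, or 8.11%. No member of these last 3 lists fell. For these 4 lists in turn, 6, 20, 9 and 9 members rose without KO 2, 5, 12, 6 and 5 without WT 4, and 5, 12, 6 and 4 without WT 6.

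Guidance and surface molecules included Epha2. Of 70 ephrin, semaphorin and plexin genes 6 rose (8.57%, against 2.52% of all genes) and none fell, with a median of 0.17. They were Epha2, Plxnb1, Epha1, Ephb6, Sema4b and Sema3c. Of 98 synaptic and neuronal adhesion genes 6 rose (6.12%) and none fell: Adgrl3, Shisa8 (0.98), Shisa4, Dlg5 (0.52), Gria3 (0.42) and Nrxn2 (0.38). The median of that list, 0.06, was close to that of all genes. Of 28 genes known as SoxB1 targets in neural progenitors 1 rose and 1 fell (3.57% each, beside 2.52% and 2.34% of all genes). Msi2, an RNA-binding protein, rose by 0.34, and the median was 0.10. The member that fell was Sox3, the gene targeted in these mice, so its fall says nothing of the other members. Of 39 contractile genes Myoz2, Tnnt1 (0.47) and Tnnt2 (0.34) rose, or 7.69%. The ephrin and synaptic lists had 14 and 12 members higher without KO 2, and the contractile list 6 without KO 2 and 8 without WT 6.

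Some matrix and adhesion genes rose by small amounts. Of 85 collagen, laminin and basement membrane genes 7 rose (8.24%) and none fell, with a median of 0.19. They were the laminin chains Lama2 (0.46), Lama3 (0.37), Lamb1 (0.48) and Lamc3 (0.42), Col4a4 (0.33), Col4a2 (0.36) and Thbs3 (0.27). Lama2 read 10.45, 10.10 and 10.45 against 9.79, 9.83 and 10.003. KO 2 was the lowest of the KO testes in this gene and in the list, whose mean was 7.43 to 7.66 in KO and 7.28 to 7.49 in WT. Of 113 matrix proteases and inhibitors 4 rose (3.54%, near the 2.52% of all genes), Mmp2 (0.50), its activator Mmp14 (0.50), Adamts10 (0.38) and Serpinb9 (0.47). Of 33 ADAM genes Adam19 (0.48) and Adam12 (0.43) rose, or 6.06%. Of 30 integrins Itga6, known from the surface of spermatogonia, rose by 0.38 (9.22, 9.14 and 9.22 against 8.75 to 8.93) and Itgb8 by 0.53. These made up 6.67% of the integrins. Leaving out KO 2 raised the counts of matrix and protease genes to 25 and 12.

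Junction genes passed the threshold at about the background rate, with 2 of 90 higher (2.22%) and 3 lower (3.33%). Cdh1, the E-cadherin of undifferentiated spermatogonia, rose by 0.56 and read 6.92, 7.003 and 6.98 against 6.17, 6.39 and 6.64 (limma adjusted p = 0.0236). Marveld2, of tight junctions, rose by 0.36. Gja6 (-0.70), Gjc1 (-0.36) and Cldn15 (-0.34) fell. The split was 11 higher and 1 lower without KO 2, 5 and 2 without WT 4, and 4 and 3 without WT 6.

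Few somatic markers passed the threshold. All 10 Sertoli markers had a positive change, with a median of 0.31, and Fshr passed (0.36). Their mean was 9.83 to 10.11 in KO and 9.60 to 9.85 in WT, where KO 2 met WT 4. The 5 Leydig markers had a median of 0.63 and a mean of 9.17 to 9.43 in KO against 8.12 to 9.04 in WT, and Hsd3b1 passed (0.63). The WT testes were split, with WT 5 and WT 6 at 9.02 and 9.04 and the other 4 between 8.12 and 8.40. Peritubular (0.22), endothelial (0.17) and macrophage (0.14) markers had positive medians and no member past the threshold. Endothelial means were 7.45 to 7.90 in KO and 7.34 to 7.72 in WT, and macrophage means 7.39 to 7.58 and 7.305 to 7.56, so the groups overlapped and KO 2 was below the WT mean in both. Of 8 spermatogonial markers Gfra1 and Ret rose, and the mean was 8.49 to 8.54 in KO against 8.16 to 8.45 in WT. Of the 8 markers 6 had a positive and 2 a negative change. The 2 negative ones, Kit (-0.18) and Stra8 (-0.17), did not pass, though all KO values of Kit lay below all its WT values. The 4 epididymis markers and the erythroid marker were all under the background mark, and 3 fat markers had a median of -0.20 with none past the threshold. The part of these cells in the results for receptors, matrix and signalling genes was not tested.

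Interferon genes were high in 1 testis. Of 46 interferon response and antigen presentation genes Irgm1 (0.86), Psmb10 (0.48) and Irf1 (0.37) rose and the class I gene H2-K1 (-0.52) fell. These were 6.52% and 2.17% of the list, beside 2.52% and 2.34% of all genes, and the median was 0.25. The list mean was 6.95 in KO 3, against 6.37 in KO 1, 6.20 in KO 2 and 6.12 to 6.44 in the WT testes. Irgm1, an immunity GTPase, read 5.92 and 5.77 in KO 1 and KO 2 and 6.78 in KO 3, all above the WT range of 5.14 to 5.48. H2-K1 read 7.997, 8.29 and 8.36 against 8.57, 8.75 and 8.85, a change opposite to that of the list. Without KO 2, 11 members of the interferon list rose, and without KO 3 none passed. Of 132 chemokine and interleukin genes 4 rose, or 3.03%, near the share of all genes (Cx3cl1, Il15ra, Il17rd and Il10rb, from 0.49 to 0.39), and 12 without KO 2. Of 31 immediate early genes Jund (0.47) and Egr3 (0.36) rose, or 6.45%, 28 had a positive change, and the median was 0.24. Egr3, a zinc finger factor that growth factors induce, read 6.10, 6.16 and 6.18 against 5.62 to 6.00.

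**Figure D5:**
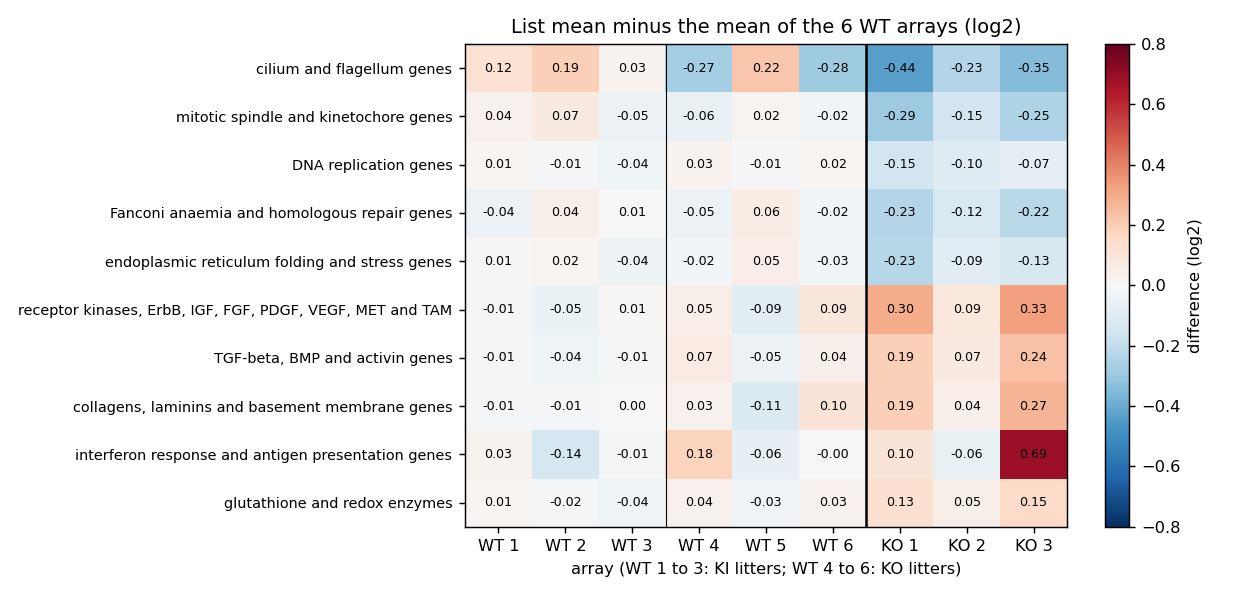
Mean of 10 gene lists in each array minus the mean of the 6 WT arrays (log2; blue lower, red higher). The KO arrays are all lower for the spindle, replication, repair and folding lists and KO 2 is paler than KO 1 in all 10 lists, WT 4 and WT 6 (-0.27 and -0.28) are low for cilium genes, and the interferon list stands out in KO 3 alone (0.69).

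Transcription factor families changed in scattered members. Of 137 homeobox genes Satb1 (0.52), Hoxb9 (0.47), Zfhx4 (0.43) and Rhox8 (0.34) rose, and Pbx4, Rhox2-ps (-0.45) and Six4 (-0.38, near the background mark) fell, shares of 2.92% and 2.19% that are near those of all genes. Of 45 forkhead genes Foxi3 (0.54), Foxc2 (0.52) and Foxp4 (0.39) rose (6.67%, against 2.52% of all genes). Foxc2, known from spermatogonia, read 6.66, 6.59 and 6.69 against 5.79, 6.14 and 6.39. Of 41 nuclear receptors 1 rose (2.44%, near the share of all genes). It was Thra, a thyroid hormone receptor, which changed by 0.49 and read 8.39, 8.10 and 8.55 against 7.70 to 8.04. Of 336 Zfp genes 10 rose (2.98%) and 5 fell (1.49%), shares near those of all genes, with Zfp534 (0.69, from WT values under the background mark) the largest increase and Zfp389 the largest decrease. Of 38 imprinted genes the neighbours Zim1 (0.74) and Peg3 (0.45) rose (5.26%) and none fell. Peg3 read 10.30, 9.89 and 10.21 against 9.56 to 9.85, and Zim1 8.63, 8.06 and 8.44 against 7.31 to 8.03. Of the Zfp genes 26 rose and 14 fell without KO 2, and 18 and 7 without WT 6, while the imprinted genes that rose numbered 8 without KO 2 and 5 without WT 4. Homeobox genes that rose numbered 7 without KO 2 and 7 without WT 6, and forkhead and nuclear receptor genes 5 and 5 without KO 2.

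MicroRNA genes were mostly dim. Of 483 microRNA genes 6 rose (1.24%) and 2 fell (0.41%), under the shares of all genes (2.52% and 2.34%). Of them 194 were above the background mark, and the array reads the gene or hairpin and not the mature strand. Mir196a-1 read 6.71, 6.46 and 7.22 against 5.77 to 6.43 (change 0.75, limma adjusted p = 0.0401), Mirlet7c-1 changed by 0.93, Mir133a-2 by 0.70, Mir344-2 by 0.47 and Mir692-1 by 0.38. Mir202 changed by 0.80 (limma adjusted p = 0.0494), with KO 2, at 8.25, inside the WT range of 7.83 to 8.565. Mir133a-2 (2.86 to 3.95) and Mir344-2 (2.70 to 3.52) were below the background mark in all 9 testes. Mirlet7c-1 read 5.94, 5.19 and 6.10 in KO against 4.43 to 5.22 in WT, so that it was below the mark in every WT testis and in KO 2. The genes that fell were Mir878 (-0.54), whose values of 2.94 to 3.90 were all below the background mark, and Mir5100 (-0.40). The mature strands of 3 genes that rose are shown, from RefSeq on GRCm38.p6, because their seeds overlap, although the let-7c gene was dim. Capitals mark the seed, bases 2 to 8.
mmu-let-7c-5p: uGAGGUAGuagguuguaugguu
mmu-miR-202-3p: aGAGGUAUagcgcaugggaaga
mmu-miR-196a-5p: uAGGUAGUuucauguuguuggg
Those of let-7c and miR-202-3p share the 6 bases GAGGUA, and those of let-7c and miR-196a-5p share AGGUAG, at positions that differ by 1. The seeds of miR-344-3p, whose gene rose, and miR-878-5p, whose gene fell, also share 6 bases, AUCUAG. No target was tested, and the overlap of seeds was not set against that of microRNAs at large. Leaving out KO 2 gave 14 microRNA genes that rose and 5 that fell. Of 1390 olfactory and vomeronasal receptor genes 13 rose (0.935%) and 2 fell (0.144%), under the background shares, 37 rose without KO 2, Olfr65, which read 5.19, 5.26 and 5.31 against 4.30 to 4.81, had the widest gap, and 86 of the 1390 were above the background mark.

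By position, the calls were spread over the chromosomes. The share of genes that rose ran from 1.502% on chromosome 2 to 4.09% on chromosome 3, and the share that fell from 1.17% on chromosome 6 to 3.43% on chromosome 3. X-linked genes had a higher median change, which was not tested. Over 530 X-linked genes above the background mark the median change was 0.11, against 0.02 to 0.05 on the autosomes, and 67.5% of all 899 X-linked genes had a positive change. By array, the X-linked median relative to the autosomes was 0.07, 0.06 and 0.07 in the KO testes, and -0.05, -0.04, -0.01, 0.06, -0.04 and 0.08 in WT 1 to WT 6. WT 4 and WT 6 were thus as high as the KO testes, and these were also the WT testes lowest in pachytene markers. Of the 899 genes 26 rose and 17 fell, close to the background shares.

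By class of gene name, those with a proper symbol held most calls, 527 of the 558 that rose and 466 of the 520 that fell, out of 18727. Genes known by a Gm number or a Rik clone name rose in 0.672% and 0.942% and fell in 1.597% and 1.82%. By level, the 5545 genes of lowest mean held 31 that rose and 8 that fell, and the 5545 of highest mean 199 and 229.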

How the data were processed

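Expression in 12 mouse testes was deposited by the authors as log2 values per transcript cluster. Per the submitters' processing notes, RMA, Affymetrix Expression Console and Partek 6.6 were used, with no role stated. RMA sets arrays to a common distribution, so changes are relative to the other genes of an array, and a fall of many germ cell transcripts can raise others. Of 41345 clusters, 23521 had 1 gene symbol in the platform annotation, 1814 several and 16010 none, and a gene with several clusters (1082) was read from the cluster of highest mean over 12 arrays, which left 22180 genes. Of these 21994 matched a RefSeq gene table, whose build is GRCm38.p6. The build and annotation release behind the deposited values were not known here. Arrays give no counts, and their number limits the precision.

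KO and WT were compared with limma 3.58.1 (R 4.3.3), in 1 fit of 12 arrays in 3 genotype groups, two-sided, with Benjamini-Hochberg adjustment over all 22180 genes at 0.05 and no filter on dim genes. The fit was tested on simulated data. Tables were made in Python 3.11.15. The named genes are Sox3, the 15 genes per direction with the widest gap between the KO and WT ranges, the 20 largest changes per direction, and up to 4 members of each list by p, or 2 by level where none passed, some of which are given only by the counts of their list; further members named were picked once their values were known. The members and lists were chosen with earlier results of these data known. The alternatives changed the arrays, controls, normalization, filter, weights, variance prior, clusters and replicate block. The replicate numbers of the labels did not pair the testes.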

Additional observations from a re-analysis of the deposited data

Results flagged for a closer look

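Among 271 sets of 6 WT values examined, 9 held a testis far from the other 5, and chance gives about 1 in 20. All concern WT testes, since groups of 3 were not examined. Cmtm2b read 5.36 in WT 5, above 4.92 to 5.06 in the others, and Zfp40 read 6.72 in WT 5, above 6.42 to 6.52. Hspb1 read 7.22 in WT 5, below the others, of which the lowest read 7.42. Pcna read 9.89 in WT 3, below 10.03 to 10.09, and Lgr4 read 8.58 in WT 1, below 8.70 to 8.77. Cx3cl1 read 7.17 in WT 2, below 7.41 to 7.54. Gjc1 read 6.58 in WT 4, above 6.14 to 6.31, and Tnnt1 read 6.19 in WT 6, above 5.72 to 5.89. The mean of the integrin list read 6.52 in WT 6, above 6.47 to 6.48.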

How the results depend on the processing

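The counts of 558 higher and 520 lower genes became 15 and 15 without the KI arrays, 1 and 1 against KO littermates, 1354 and 1105 among genes above the median level, 1174 and 956 among genes above the background mark, and 1154 and 894 with a variance trend and robust prior. Leaving out single arrays gave 1 to 1375 higher and 1 to 948 lower. Against the KI littermates alone, also 3 WT testes, the counts were 677 and 668. Fewer arrays entered without the KI arrays, fewer controls were compared in the littermate settings, and fewer genes were tested in the filtered ones. The cause of these differences was not tested. With the replicate block of the labels the counts were 573 and 895, but same-numbered KO and WT testes, which are of different litters (WT 1 to WT 3 are littermates of KI mice), did not all deviate together (correlations -0.07, 0.26 and -0.01), so the numbers do not pair the testes. Sox3 was -0.69 and no longer past the threshold against KO littermates, and -0.70 to -0.66 when single arrays were left out, past the threshold except without KO 1 or KO 3. The 205 named genes past the threshold kept their sign in every alternative in which they were tested. They were picked from the same arrays that the alternatives reuse, so this is no separate support. The number of them past the threshold ranged from 2 to 203. Medians of lists moved by less than the spread between WT testes in 1033 of 1100 cases.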
